A study of Mustela putorius furo with 9 samples.

Results

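The 9 genes described here, PLIN2, PLIN3, LPIN1, DGAT1, DGAT2, SOAT1, PNPLA2, LIPE and MGLL, encode proteins that coat, fill and empty the lipid droplets of a cell. They were picked by symbol and role from a table of 28494 genes, not by a threshold on their values, and all 9 had a row. Earlier results of these data were known when they were picked. Of these, 7 were tested and 2, DGAT2 and MGLL, were too low to test.

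A lipid droplet is a core of triglyceride and cholesteryl ester inside a phospholipid monolayer that carries coat proteins, among them the perilipins. Lipin phosphatases make diacylglycerol, the DGAT enzymes turn it into triglyceride, and SOAT1 esterifies cholesterol. In lipolysis, PNPLA2, LIPE and MGLL act in turn on triglyceride, diacylglycerol and monoacylglycerol. In the lung, lipofibroblasts hold droplets and alveolar type 2 cells make the lipid-rich surfactant.

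RNA was sequenced from NBL-7 cells, a line that the labels describe as epithelial and from ferret, kept in DMEM with serum and, per the study's title, exposed to particulate matter. There were 3 groups of 3 libraries: Ep1, labelled untreated; Ep2, labelled 250 µg/mL of particulate matter; and a group titled PBS1, labelled 500 µg/mL. PBS is the common name of a buffer used as a vehicle, so title and label of that group point to different treatments; groups are called by title here, and the rising dose order is that of the labels only. The table's columns for the last group are named PBS1, PBS2 and PBS3 and cannot be tied to single titles. No label gives an exposure time, or says whether a group's libraries were grown as separate cultures, so a p-value here reflects library-to-library spread that may be technical. The name NBL-7 is also used for a mink lung line; the species was not tested.

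Of 9 epithelial markers, KRT7, KRT8, KRT19 and NKX2-1 passed the filter on low values. EPCAM was listed at 0 in all 9 libraries, CDH1 and KRT18 did not exceed 0.135 and 0.0458 FPKM, and CLDN4 and CLDN7 did not exceed 0.130 and 0.135 FPKM. The epithelial sum, most of it KRT7, was 1151 to 1533 FPKM in Ep1, 1073 to 1245 FPKM in Ep2 and 1370 to 1600 FPKM in PBS1. None of 5 adipocyte markers was tested: ADIPOQ and LEP were listed at 0 throughout, and the sum of the 5 was at most 0.429 FPKM in any library. Surfactant genes SFTPB, SFTPC and SFTPD were at or near 0, with a maximum of 0.0523 FPKM. The sums were 5.14 to 6.26, 3.77 to 4.63 and 4.83 to 5.57 FPKM for 5 listed alveolar type 2 markers in Ep1, Ep2 and PBS1, nearly all of it ABCA3; 0.0567 to 1.40, 0.0615 to 0.509 and 0.151 to 0.32 FPKM for club and ciliated cells; and 2.83 to 3.67, 2.51 to 3.24 and 1.98 to 3.73 FPKM for fibroblasts. The fibroblast sums were nearly all COL1A2 and PDGFRA, with DCN and LUM listed at 0 throughout. For leukocytes, mostly MRC1 and TYROBP, the sums were 5.87 to 6.92, 5.29 to 6.81 and 4.66 to 5.51 FPKM. Among the other leukocyte markers, CD163 was listed at 0 throughout, and PTPRC, CSF1R and CD68 did not exceed 0.0523, 0.225 and 0.925 FPKM. For endothelium, nearly all TEK, the sums were 12.0 to 13.0, 13.9 to 16.0 and 15.6 to 17.7 FPKM. Of the 10 markers tested over all cell types, NKX2-1 (log2 difference -0.58, adjusted p = 0.00667), KRT8 (-0.37, 0.0128) and ABCA3 (-0.36, 0.0226) were lower in Ep2 than in Ep1 and TEK was higher (0.26, 0.0245). KRT19 (0.64, adjusted p = 0.0006), NKX2-1 (0.63, 0.00122) and KRT8 (0.36, 0.00635) were higher in PBS1 than in Ep2 and the macrophage marker MRC1 was lower (-0.28, 0.0292), and 0 were called for PBS1 minus Ep1. The part that these shifts have in the results was not tested.

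Libraries held 12469849 to 13533480 fragments, worked out from the deposited values. Across tested genes Ep1_1 correlated more closely with the PBS columns (0.9923 to 0.9941) than with Ep1_2 (0.9913) and Ep1_3 (0.9896), and Ep2_1 was about as close to Ep1_3 (0.9916) as to Ep2_2 (0.9915). Calls of the genes described below were therefore also made with each library left out.

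Levels of the 9 genes spanned more than 3 orders of magnitude in FPKM, fragments scaled to gene length and library size. PNPLA2 was the highest, with 75.5 to 132 FPKM over the 9 libraries, at rank 738 of 11840 tested genes by mean, followed by DGAT1 (43.5 to 59.9 FPKM), PLIN2 (22.1 to 31.8 FPKM) and SOAT1 (7.82 to 11.7 FPKM). The ranges of these 4 did not overlap. Below them, PLIN3 (2.34 to 6.16 FPKM), LPIN1 (2.09 to 4.73 FPKM) and LIPE (1.24 to 3.07 FPKM) overlapped, so their order by mean is not fixed by these libraries. DGAT2 (0.106 to 0.470 FPKM) and MGLL (0 to 0.0659 FPKM) came last. Each of the 7 tested genes was above 1 FPKM in every library, so none of them was tested because of a single group.

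**Figure D1:**
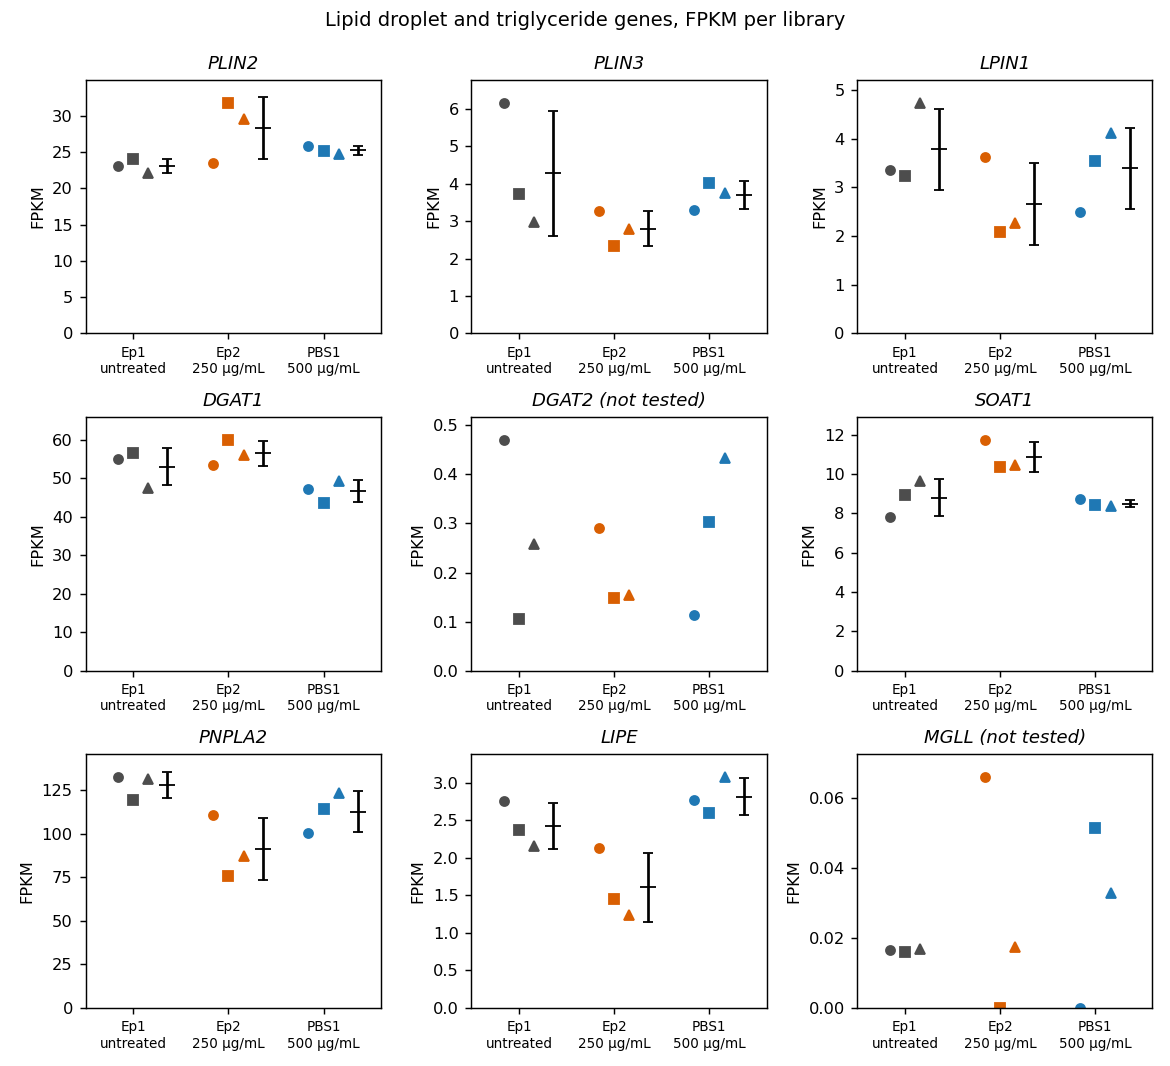
FPKM (vertical axes, each from 0) of the 9 genes in every library of Ep1, Ep2 and PBS1 (horizontal axes, in the order of the labelled doses); circle, square and triangle are replicates 1, 2 and 3 of Ep1 and Ep2 and columns PBS1, PBS2 and PBS3, and bars are mean and SD (n = 3), left out for DGAT2 and MGLL. PNPLA2 was lowest in Ep2_2 (75.5 FPKM) and Ep2_3 (87.3 FPKM), the libraries with the highest PLIN2 (31.8 and 29.6 FPKM).

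Between Ep2 and Ep1, the triglyceride lipase gene PNPLA2 and the hormone-sensitive lipase gene LIPE fell, the cholesterol esterifying SOAT1 rose, and PLIN2, PLIN3, LPIN1 and DGAT1 did not pass the test at an adjusted p of 0.05. These 3 of 7 stand beside 27.4% of all 11840 tested genes called in the same comparison. Between PBS1 and Ep1, 0 of 7 were called, beside 0.144% of all genes, a share that was 30.3% with library weights and 16% without Ep1_1. Between PBS1 and Ep2, LIPE was higher in PBS1 and DGAT1 and SOAT1 were lower, 3 of 7 beside 49.6% of all genes. Over the 3 groups, 4 of 7 (DGAT1, SOAT1, PNPLA2 and LIPE) passed the F-test, beside 45.4% of all genes. With 7 genes these shares are no result particular to droplet genes. Each group enters more than 1 comparison, so the comparisons are not independent of each other.

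The droplet coat was represented by PLIN2 and PLIN3. PLIN2, which covers droplets in most cell types and is degraded when it is not bound to one, measured 23.1, 24.0 and 22.1 FPKM in Ep1_1 to Ep1_3, 23.6, 31.8 and 29.6 in Ep2_1 to Ep2_3, and 25.9, 25.2 and 24.7 FPKM in columns PBS1 to PBS3. Ep2_2 and Ep2_3 lay above every other library and Ep2_1 lay inside the Ep1 range. The mean was 28.3 ± 4.27 FPKM in Ep2 and 23.1 ± 0.971 FPKM in Ep1 (SD, n = 3 each). The log2 difference, on the log2(FPKM + 1) scale used throughout, was 0.28 (SE 0.09, adjusted p = 0.0508), just outside the threshold. Without Ep2_1 it was 0.40 (adjusted p = 0.00377), and over all 21 alternatives the adjusted p ran from 0.00377 to 0.182 and passed in 5. The 3 PBS columns all lay above the 3 Ep1 libraries, yet by only 0.13 (SE 0.09, adjusted p = 0.441). PBS1 minus Ep2 was -0.15 (SE 0.09, adjusted p = 0.21), and -0.27 (adjusted p = 0.00861) without Ep2_1, in a range over 20 alternatives of 0.00861 to 0.616.

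PLIN3, a coat protein that moves between cytosol and new droplets, measured 6.16, 3.72 and 2.97 FPKM in Ep1, 3.27, 2.34 and 2.78 in Ep2 and 3.29, 4.03 and 3.75 FPKM in PBS1, from 54 to 146 fragments a library. Ep1_1 stood far above all others, and the next highest was column PBS2. The log2 difference was -0.44 (SE 0.19, adjusted p = 0.1) for Ep2 minus Ep1 and 0.31 (SE 0.19, adjusted p = 0.188) for PBS1 minus Ep2, although the ranges of PBS1 and Ep2 did not overlap. For PBS1 minus Ep1 it was -0.13 (SE 0.19), and 0.11 without Ep1_1, so the direction turned with that library. Ep2 minus Ep1 was -0.20 without Ep1_1, and -0.62 without Ep1_3 (adjusted p = 0.0265, in a range of 0.0265 to 0.33 over 20 alternatives). Other perilipins were barely detected: PLIN1, the adipocyte form, reached at most 0.14 FPKM, and PLIN4 and PLIN5, listed on the same scaffold as PLIN3, at most 0.0354 and 0.122 FPKM.

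The synthetic side held LPIN1, DGAT1, DGAT2 and SOAT1. DGAT1, an acyltransferase of the endoplasmic reticulum, measured 55.0, 56.7 and 47.4 FPKM in Ep1, 53.5, 59.9 and 56.0 in Ep2, and 47.3, 43.5 and 49.3 FPKM in PBS1. Every PBS column lay below every Ep2 library, while Ep1 overlapped both. DGAT1 was lower in PBS1 than in Ep2 by a log2 difference of -0.27 (SE 0.08, adjusted p = 0.0157), with means of 46.7 ± 2.95 FPKM in PBS1 and 56.5 ± 3.24 FPKM in Ep2 (SD, n = 3 each). The call was kept in 18 of 20 alternatives; it was lost without Ep2_2 (adjusted p = 0.064) or column PBS2 (0.0694), in a range of 0.00344 to 0.0694. For Ep2 minus Ep1 the difference was 0.09, with a 95% interval of -0.08 to 0.27. For PBS1 minus Ep1 it was -0.18 (interval -0.35 to -0.0041, unadjusted p = 0.0456, adjusted p = 0.216). That difference was called in 1 of 20 alternatives, with library weights (-0.26, adjusted p = 0.0152).

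DGAT2, the droplet-associated enzyme of the same last step but of another protein family, was read by 13, 3 and 7 fragments in Ep1, 8, 4 and 4 in Ep2 and 3, 8 and 12 in PBS1. Summed over a group these were 23 fragments in Ep1 (95% counting interval 14.6 to 34.5), 16 in Ep2 (9.15 to 26.0) and 23 in PBS1 (14.6 to 34.5). The intervals overlapped, and a difference was not detectable at this depth; they cover counting error only. DGAT1, by contrast, was read by at least 703 fragments in every library.

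SOAT1, which stores cholesterol as its ester, measured 7.82, 8.93 and 9.67 FPKM in Ep1, 11.7, 10.3 and 10.5 in Ep2, and 8.71, 8.42 and 8.36 FPKM in PBS1. All 3 Ep2 libraries lay above all others. The gene rose in Ep2 against Ep1 by a log2 difference of 0.28 (SE 0.08, adjusted p = 0.0318), to 10.9 ± 0.769 FPKM in Ep2 against 8.81 ± 0.930 FPKM in Ep1. It was lower in PBS1 than in Ep2 by -0.32 (SE 0.08, adjusted p = 0.00932), at 8.50 ± 0.186 FPKM in PBS1. The second call was kept in all 20 alternatives (adjusted p 0.00248 to 0.0329). The first was kept in 13 of 21 (0.016 to 0.0959), and in 4 of the 9 fits with a library left out. It was lost without Ep1_1 (0.0959), Ep1_2 (0.0603), Ep2_1 (0.0841), Ep2_2 (0.0593) or Ep2_3 (0.0707). Of the 12 other alternatives 9 kept the call, and it was lost with the replicate number as a block (0.0837). Ep2_1, at 133% of the Ep1 mean, was here the Ep2 library farthest from it; for the other 6 tested genes that was Ep2_2 or Ep2_3.

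LPIN1, a phosphatidate phosphatase that also acts as a transcriptional co-regulator, measured 3.36, 3.24 and 4.73 FPKM in Ep1, 3.61, 2.09 and 2.26 in Ep2, and 2.49, 3.55 and 4.12 FPKM in PBS1. Ep2_2 and Ep2_3 were the lowest of the 9, but the ranges of all 3 groups overlapped. The log2 difference was -0.40 (SE 0.19, adjusted p = 0.134) for Ep2 minus Ep1, with an interval of -0.81 to 0.02, and -0.58 (adjusted p = 0.036) without Ep2_1, in a range of 0.036 to 0.35 over 20 alternatives. PBS1 minus Ep2 was 0.27 (SE 0.19, adjusted p = 0.251), and PBS1 minus Ep1 was -0.13 (SE 0.19, adjusted p = 0.717).

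Among the lipolytic genes, PNPLA2, whose product starts triglyceride breakdown, measured 132, 119 and 132 FPKM in Ep1, 110.5, 75.5 and 87.3 in Ep2, and 100.2, 114 and 124 FPKM in PBS1. Every Ep2 library lay below every Ep1 library, and the PBS columns reached from the Ep2 range into the Ep1 range. In bulk RNA, less of this RNA per cell and fewer cells that hold it cannot be told apart. PNPLA2 fell to 91.1 ± 17.8 FPKM in Ep2, against 128 ± 7.41 FPKM in Ep1 (SD, n = 3 each), a log2 difference of -0.50 (SE 0.12, adjusted p = 0.0153). Ep2_1, Ep2_2 and Ep2_3 stood at 86.5%, 59.1% and 68.4% of the Ep1 mean. The call was kept in 19 of 21 alternatives and lost without Ep2_2 (log2 difference -0.37, adjusted p = 0.0535) or Ep2_3 (-0.48, 0.0582), in a range of 0.00209 to 0.0582. PBS1 minus Ep2 was 0.32 (SE 0.12, adjusted p = 0.0511), passing in 6 of 20 alternatives (0.00402 to 0.196) and at 0.46 without Ep2_1, where the adjusted p was the lowest of these. PBS1 minus Ep1 was -0.18 (SE 0.12, adjusted p = 0.391).

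LIPE, which acts next and takes diacylglycerol and cholesteryl ester, measured 2.76, 2.37 and 2.15 FPKM in Ep1, 2.12, 1.45 and 1.24 in Ep2, and 2.77, 2.59 and 3.07 FPKM in PBS1, from 87 to 229 fragments a library. The 3 Ep2 libraries were the lowest of the 9, with Ep2_1 close beneath Ep1_3. LIPE was higher in PBS1 than in Ep2 by a log2 difference of 0.56 (SE 0.13, adjusted p = 0.00585), at 2.81 ± 0.243 FPKM in PBS1 and 1.61 ± 0.461 FPKM in Ep2, and this call was kept in all 19 alternatives (0.000735 to 0.0256). Ep2 minus Ep1 was -0.41 (SE 0.13, adjusted p = 0.0434), with 2.43 ± 0.305 FPKM in Ep1. That call was kept in 10 of 20 alternatives (0.0083 to 0.154) and in 2 of the 9 fits with a library left out. It was lost without Ep1_1 (0.14), Ep1_2 (0.0794), Ep2_2 (0.124), Ep2_3 (0.154), column PBS1 (0.0596), column PBS2 (0.0578) or column PBS3 (0.0537). PBS1 minus Ep1 was 0.16 (SE 0.13, adjusted p = 0.509).

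MGLL, which ends the chain by splitting monoacylglycerol, was near the floor of detection, with 1, 1 and 1 fragments in Ep1, 4, 0 and 1 in Ep2, and 0, 3 and 2 in PBS1. A count of 0 allows up to 3 fragments, equal to 0.0505 FPKM in Ep2_2 and 0.051 FPKM in column PBS1. No comparison was made for it. Its neighbours in function were not absent: ABHD6 and ABHD12, other hydrolases that take monoacylglycerol, averaged 2.44 and 23.7 FPKM in Ep1, 3.25 and 23.1 in Ep2, and 3.07 and 21.6 FPKM in PBS1, with no call in any comparison.

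**Figure D2:**
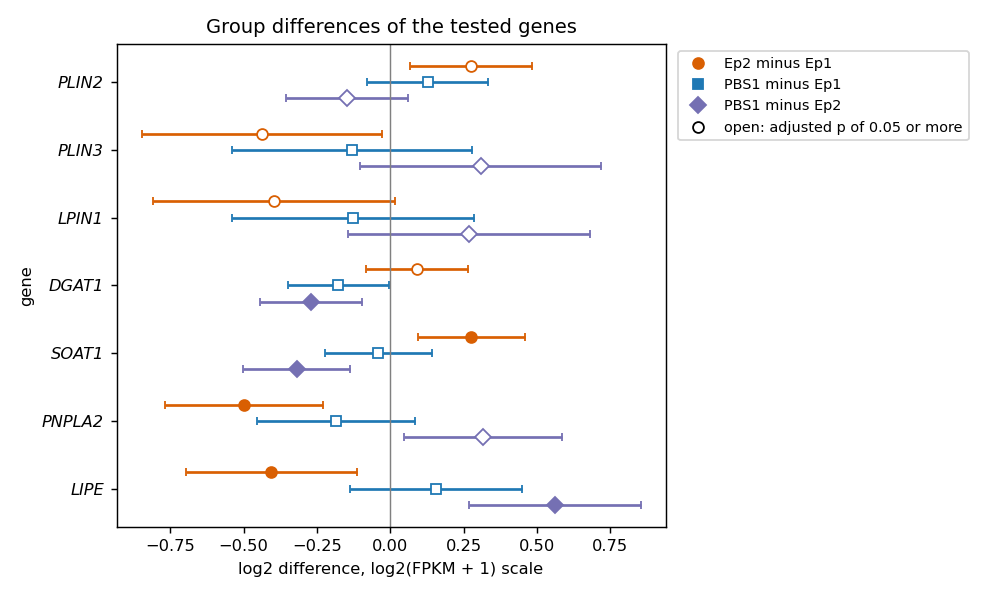
Log2 differences on the log2(FPKM + 1) scale (horizontal axis) of the 7 tested genes (vertical axis) for the 3 comparisons, with 95% intervals from limma over 9 libraries; filled symbols had an adjusted p under 0.05. For Ep2 minus Ep1, PNPLA2 (-0.50) and LIPE (-0.41) lay below 0 and SOAT1 (0.28) above; for PBS1 minus Ep1 all 7 symbols are open.

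Counted over the 7 tested genes, Ep2 minus Ep1 had 1 gene higher, 2 lower and 4 not called. The median log2 difference was -0.40 against -0.0035 over all tested genes. In every comparison the median of the 7 was the value of LPIN1, which was not called. For Ep2 minus Ep1, 4 genes lay from -0.50 to -0.40 and 3 from 0.09 to 0.28, so the median is no shift of the set. The number called for Ep2 minus Ep1 was 1 without Ep1_1, 1 without Ep1_2, and 0 without Ep2_2 or without Ep2_3. Without Ep2_2 and Ep2_3, 12.7% and 10.7% of all genes were called, against 27.4% in the main fit. The counts of 0 are therefore no result particular to the 7 genes. For the fits without Ep1_1 or Ep1_2 the share of all genes is not given here, so their counts of 1 have no background beside them. For PBS1 minus Ep1 the median was -0.13 against 0.0027, and 1 gene (DGAT1) had an unadjusted p under 0.05. By limma 0 were called, also with voom on fragments and without Ep1_1. With library weights DGAT1 was called (-0.26, adjusted p = 0.0152), in a fit that called far more of all genes. For PBS1 minus Ep2 the median was 0.27 against 0.0024, with 1 gene higher, 2 lower and 4 not called. Without Ep2_1 the count was 5, PLIN2 and PNPLA2 being added, beside 47.8% of all genes. The F-test passed 1 of the 7 without Ep2_2 and 1 without Ep2_3. The share of all genes that passed it was not counted in these fits, so these counts have no background beside them.

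The members did not move as a block. Ep2_2 and Ep2_3 held the lowest pair of values of PNPLA2, LIPE, LPIN1 and PLIN3 among the 9 libraries and the highest pair of PLIN2. SOAT1 was high in all 3 Ep2 libraries. DGAT1 was lower in every PBS column than in every Ep2 library, and its Ep1 range overlapped both. Over the 9 libraries, the Pearson correlation of log2 values was -0.956 between PNPLA2 and PLIN2, 0.886 between PNPLA2 and LPIN1, and 0.754 between PNPLA2 and LIPE. SOAT1 stood at -0.729 with LIPE, -0.725 with PLIN3, -0.522 with PNPLA2, -0.239 with LPIN1, 0.324 with PLIN2 and 0.392 with DGAT1. These values are descriptions over libraries that share groups, so they carry the group differences with them.

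Ratios within a library do not depend on how the library was scaled, and were chosen after the values were seen, so they are given without a test. PNPLA2 over PLIN2 was 5.74, 4.96 and 5.96 in Ep1, 4.69, 2.37 and 2.95 in Ep2, and 3.87, 4.54 and 4.995 in PBS1. All 3 Ep2 libraries lay below all 3 Ep1 libraries, and Ep2_1 lay among the PBS columns. PNPLA2 over DGAT1, a lipase against an acyltransferase, was 2.41, 2.10 and 2.77 in Ep1, 2.06, 1.26 and 1.56 in Ep2, and 2.12, 2.62 and 2.50 in PBS1. The Ep2 values were the lowest, Ep2_1 by a narrow margin. PLIN2 over PLIN3 was 3.74, 6.46 and 7.42 in Ep1, 7.20, 13.6 and 10.6 in Ep2, and 7.86, 6.25 and 6.59 in PBS1. Ep1_1 was the lowest and Ep2_1 lay inside the Ep1 range. The sum of the 9 genes was 218 to 231 FPKM in Ep1, 184 to 209 FPKM in Ep2 and 191 to 217 FPKM in PBS1, of which PNPLA2 and DGAT1 made up 73.8% to 81.1%.

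**Figure D3:**
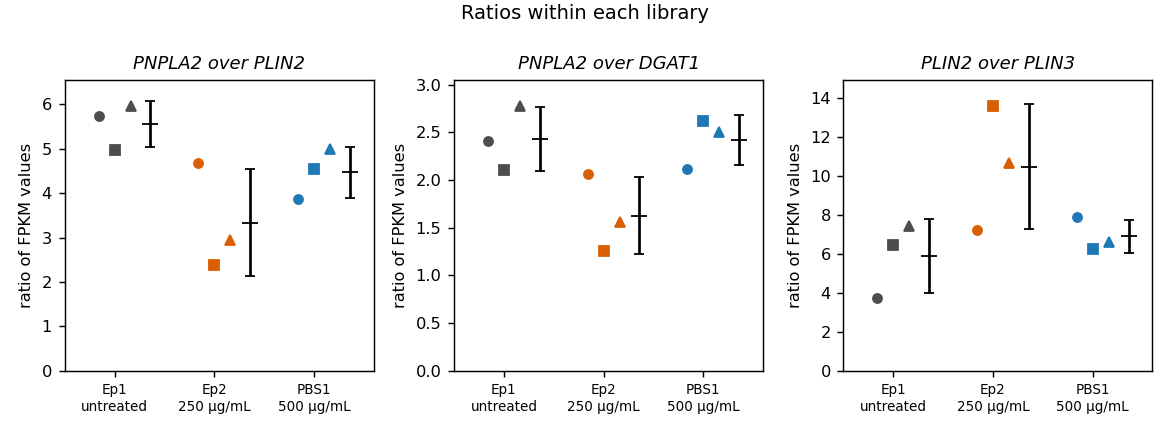
Ratios of FPKM values within each library (vertical axes, from 0) for PNPLA2 over PLIN2, PNPLA2 over DGAT1 and PLIN2 over PLIN3, by group (horizontal axes); circle, square and triangle are replicates 1, 2 and 3 of Ep1 and Ep2 and columns PBS1, PBS2 and PBS3, and bars are mean and SD (n = 3). PNPLA2 over PLIN2 was 2.37 and 2.95 in Ep2_2 and Ep2_3 and at least 3.87 in every other library.

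Other genes of triglyceride and droplet metabolism, 77 by name and grouped by role, were read alongside; 70 had a row under the symbol used and 46 were tested. For Ep2 minus Ep1, 5 rose, 7 fell and 34 were not called (median -0.02); for PBS1 minus Ep1, 0 were called and 7 had an unadjusted p under 0.05; for PBS1 minus Ep2, 11 were higher, 6 lower and 29 not called (median 0.03). Without Ep2_3 the first count was 7, and without Ep1_1 the second was 2. The share of all genes called, given above for both fits, was also lower than in the main fit without Ep2_3 and higher without Ep1_1. These changes are therefore no result particular to the neighbouring genes. In the main fit, the neighbouring genes' shares for Ep2 minus Ep1 and PBS1 minus Ep2 were 26.1% and 37.0%. They lay close to or under those of all genes, 27.4% and 49.6%. These all-gene shares also stand beside the counts by role that follow, which were not tested.

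Genes that activate fatty acids and acylate glycerol included AGPAT5, which acylates lysophosphatidate. It rose to 55.7 ± 4.36 FPKM in Ep2, against 40.9 ± 3.27 FPKM in Ep1 (log2 difference 0.44, SE 0.07, adjusted p = 0.00484), and was lower in PBS1, at 38.2 ± 0.369 FPKM, than in Ep2 (-0.53, adjusted p = 0.000534). Its relative AGPAT2 ran the other way between PBS1 and Ep2, with 13.7 ± 1.52 FPKM in PBS1 and 9.41 ± 1.07 FPKM in Ep2 (0.50, adjusted p = 0.0232). ACSL5, an acyl-CoA synthetase, rose in Ep2 against Ep1 by 0.26 (adjusted p = 0.0302). The abundant synthetases ACSL3 and ACSL4 were not called, at 78.7 and 45.4 FPKM in Ep1, 81.8 and 46.7 in Ep2, and 74.6 and 43.6 FPKM in PBS1. Of 10 tested genes in this role, 2 rose and 0 fell for Ep2 minus Ep1, beside 27.4% of all genes called. For PBS1 minus Ep2, 1 was higher and 1 lower, beside 49.6% of all genes.

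Lipin relatives and regulators were mixed. CNEP1R1 and CTDNEP1 form the phosphatase that acts on lipins; CNEP1R1 rose to 23.3 ± 1.45 FPKM in Ep2, against 18.1 ± 1.38 FPKM in Ep1 (0.34, adjusted p = 0.00994), and was lower in PBS1, at 16.3 ± 0.904 FPKM, than in Ep2 (-0.49). CTDNEP1 and LPIN3 were higher in PBS1 than in Ep2, by 0.17 (adjusted p = 0.0188) and 0.47 (adjusted p = 0.0305). LPIN2, at 11.7 FPKM in each group, had log2 differences of at most 0.0093. Of the 4 tested genes in this role, 1 rose and 0 fell for Ep2 minus Ep1, beside 27.4% of all genes called. For PBS1 minus Ep2, 2 were higher and 1 lower, beside 49.6% of all genes. With 4 genes these counts are no result particular to the role. The sterol ester genes beside SOAT1 had no call among 3 tested: the hydrolase genes NCEH1 and LIPA averaged 42.3 and 32.4 FPKM in Ep1, 45.1 and 33.1 in Ep2, and 41.8 and 31.2 FPKM in PBS1. SOAT2, the form known from liver and intestine, did not exceed 0.103 FPKM.

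Of 7 tested genes of droplet coat and formation, RAB18, a small GTPase of the droplet surface, was called: it rose to 54.5 ± 0.962 FPKM in Ep2, against 46.3 ± 2.13 FPKM in Ep1 (0.23, adjusted p = 0.0138), and was lower in PBS1, at 46.1 ± 1.59 FPKM, than in Ep2 (-0.24, adjusted p = 0.00519). AUP1 and FAF2, which work in protein removal at the droplet and the endoplasmic reticulum, were not called. Of 6 tested genes of lipolysis, ABHD5, the protein that activates PNPLA2, rose to 9.97 ± 0.648 FPKM in Ep2, against 8.38 ± 0.0632 FPKM in Ep1 (0.22, adjusted p = 0.0405), the reverse of PNPLA2 itself. ABHD5 was lower in PBS1, at 8.52 ± 0.555 FPKM, than in Ep2 (-0.20, adjusted p = 0.0357). G0S2, which inhibits PNPLA2, was listed at 0 in all 9 libraries. PNPLA6, a phospholipase of the same family as PNPLA2, fell in Ep2 against Ep1 (log2 difference -0.34, adjusted p = 0.00524) and was higher in PBS1 than in Ep2 by 0.44 (adjusted p = 0.000481). DDHD2, a triglyceride hydrolase, was lower in PBS1 than in Ep2 (-0.24, adjusted p = 0.0142), and LPL, the secreted lipoprotein lipase, was not called.

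Of 6 tested fatty acid handling genes, 2 fell and 0 rose for Ep2 minus Ep1, beside 27.4% of all genes called. SLC27A1, a fatty acid transporter, averaged 3.73 ± 0.552 FPKM in Ep2, against 5.54 ± 0.754 FPKM in Ep1 (-0.47, adjusted p = 0.012), and FABP5, a fatty acid binding protein, 90.4 ± 10.5 FPKM in Ep2, against 116 ± 10.3 FPKM in Ep1 (-0.36, adjusted p = 0.0244); the other 4 of the 6 tested were not called. SLC27A1 (0.59, adjusted p = 0.00152) and FABP3 (1.13, SE 0.34, adjusted p = 0.0174) were higher in PBS1 than in Ep2, FABP3 at 2.30 ± 0.791 FPKM in PBS1 and 0.629 ± 0.911 FPKM in Ep2. Of 10 tested transcriptional regulators, 4 fell and 0 rose for Ep2 minus Ep1, where 14% of all genes fell and 27.4% were called either way; for PBS1 minus Ep2, 6 of the 10 were called, beside 49.6% of all genes. The 10 were picked by role, with earlier results of these data known, and their count was not tested. SREBF1 (-0.58, adjusted p = 0.00441), which drives lipid synthesis genes, fell, as did RXRA (-0.48, adjusted p = 0.00732), the partner of the PPAR and LXR receptors. The others that fell were NR1H2 (-0.43, adjusted p = 0.0112), an LXR gene, and the hypoxia factor gene EPAS1 (-0.29, adjusted p = 0.00962). All 4, and SREBF2 (0.57, adjusted p = 0.00368), were higher in PBS1 than in Ep2, while HIF1A was lower (-0.46, adjusted p = 0.00172). The other LXR gene, NR1H3, was called neither for Ep2 minus Ep1 (-0.07, adjusted p = 0.697) nor for PBS1 minus Ep2 (-0.0036, adjusted p = 0.983). PPARD and PPARG, receptors whose known targets include PLIN2, were not called, at 19.8 and 5.69 FPKM in Ep1, 19.7 and 5.96 in Ep2, and 20.9 and 5.36 FPKM in PBS1.

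With each of the 9 libraries left out in turn, 6 of the 12 calls for Ep2 minus Ep1 and 11 of the 17 for PBS1 minus Ep2 held every time. For Ep2 minus Ep1, the calls of ACSL5 (adjusted p = 0.0666), ABHD5 (0.0763) and FABP5 (0.0596) were lost without Ep1_1, and none was lost in either comparison without Ep2_1. Over the 9 fits, ACSL5 was called in 4, ABHD5 in 2 and FABP5 in 5, with adjusted p-values up to 0.111, 0.146 and 0.0926; ACSL5 and ABHD5 were also lost without Ep1_2, Ep1_3, Ep2_2 or Ep2_3, and ABHD5 without column PBS1 or PBS2. FABP5 was also lost without Ep1_3, Ep2_2 or Ep2_3, RAB18 without Ep2_2 (0.0542), and SLC27A1 (0.0521) and NR1H2 (0.0501) without Ep2_3. For PBS1 minus Ep2, AGPAT2 was lost without Ep2_3, column PBS1 or column PBS2, LPIN3 without Ep2_2, Ep2_3, column PBS1 or column PBS2, and ABHD5 without Ep2_2, Ep2_3, column PBS2 or column PBS3. CTDNEP1 was lost without Ep2_2, Ep2_3 or column PBS2, and DDHD2 without column PBS1 or column PBS2. FABP3 was read by 16, 2 and 0 fragments in Ep2 and 17, 17 and 31 in PBS1; its call was lost without Ep2_2, Ep2_3 or column PBS3 (up to 0.0703), and its difference was 1.56 without Ep2_1. SREBF2 kept its call throughout, with 63.2 FPKM in Ep2_1 beside 41.8 and 44.5 FPKM in Ep2_2 and Ep2_3.

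**Figure D4:**
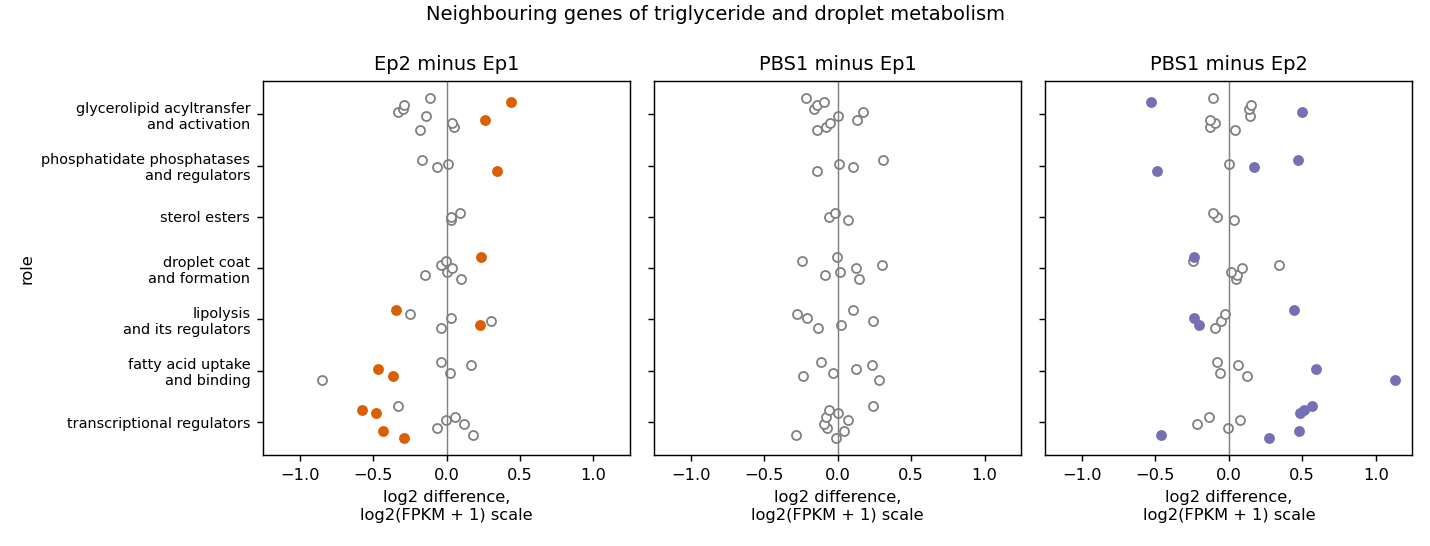
Log2 differences on the log2(FPKM + 1) scale (horizontal axes) of the 46 tested neighbouring genes by role (vertical axis), 1 panel for each comparison; each point is a gene, filled where the adjusted p from limma was under 0.05. Filled points number 12 for Ep2 minus Ep1, 0 for PBS1 minus Ep1 and 17 for PBS1 minus Ep2.

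For the 4 genes that passed the F-test, the nearest patterns over the 9 libraries, among 7697 named genes with a mean of at least 5 FPKM, were as follows. The likeness is the Pearson correlation of log2 values and carries no test. PNPLA2 was most like ABLIM3 (0.987), BTG2 (0.983) and SULF2 (0.968). LIPE was most like STK10 (0.981), SLC45A4 (0.981) and SCAND1 (0.978). SOAT1 was most like ELP2 (0.972), SLC17A5 (0.970) and CNOT10 (0.966), and DGAT1 was most like CRLF3 (0.928), MFAP5 (0.926) and ARV1 (0.922). BTG2, for example, averaged 33.0 FPKM in Ep1, 25.1 FPKM in Ep2 and 30.0 FPKM in PBS1, and ELP2 averaged 15.4 FPKM in Ep1, 17.8 FPKM in Ep2 and 14.4 FPKM in PBS1.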

How the data were processed

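The authors deposited 1 table of FPKM, per the file headers, with 9 library columns and a gene length. The submitters' processing notes name Bowtie 0.12.2 and mm8. Since mm8 is a mouse genome and the table names ferret scaffolds, no coordinates are given. How reads were counted, by strand or when shared by genes, is not given in the sources used here. Members and lists were chosen with earlier results of these data known. FPKM multiplied by gene length fell on steps of equal size (100% of values above 0, tolerance 0.02), which gave fragments per library; intervals on fragments cover counting error only.

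Tested were the 11840 genes that reached 1 FPKM in 3 or more libraries. The test was limma 3.58.1 (R 4.3.3) on log2(FPKM + 1), with the variance trended on mean level, all 9 libraries fitted together and no block; the Benjamini-Hochberg adjustment ran over all of these genes, with 0.05 as threshold. The pseudocount makes log2 differences of low genes too small. Intervals of differences are 95% limma intervals. A run of the fit on simulated fragments used noise that was independent for each gene and library. It did not model a library that stands apart from its group, such as Ep1_1, so it does not establish error rates for these data. Named neighbouring genes were, per role, up to 4 called (largest difference first) and up to 2 not called (highest mean first); the rest named were chosen after their values were seen. Alternatives were other pseudocounts (0.1, 0.5), filters (none, 5 FPKM), scalings, weights, fits and each library left out. Libraries of a group were not duplicates (chi-square per degree of freedom 2.73 to 10.9).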

Additional observations from a re-analysis of the deposited data

How the results depend on the processing

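Directions of the 6 calls held in every alternative run. For Ep2 minus Ep1 the number of the 7 genes called was 3, but 1 with no filter on low values, 1 with only the 6 libraries compared, 5 with library weights (11.5%, 19.6% and 37.9% of all genes, against 27.4%), and 0 to 4 with a library left out; for the neighbouring genes it was 12, but 19 with library weights and 7 to 18 with a library left out. For PBS1 minus Ep1 it was 0 of the 7, but 1 (DGAT1) with library weights (30.3% of all genes, against 0.144%). For the neighbouring genes it was 0, but 11 with library weights, 1 with voom on fragments (4.43% of all genes), and 0 to 2 with a library left out. For PBS1 minus Ep2 it was 3, but 6 with library weights (59.2% of all genes, against 49.6%) and 2 to 5 with a library left out. Shares of all genes are given above for only some fits with a library left out. The ranges of counts over these fits are therefore no result particular to the listed genes. The F-test passed 4, but 2 with no filter and 1 to 5 with a library left out. The share of all genes that passed it was counted in the main fit only (45.4%). Differences that turned sign were all uncalled and for PBS1 minus Ep1: LPIN1, from -0.248 to 0.0288 with a library left out; PLIN3, from -0.313 to 0.113, and 0.0002 with library weights; SOAT1, from -0.116 to 0.0214. The causes were not tested. Scaling moved the median of all genes by less than 0.03.

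Whether numbers shared by Ep1 and Ep2 libraries pair them is not settled by these data. Deviations of same-numbered libraries correlated at 0.152, 0.072 and 0.0647, and those of differently numbered libraries at -0.127 to 0.0733. With the replicate number as a block, 2 of the 7 genes (PNPLA2 and LIPE, not SOAT1, adjusted p = 0.0837) and 12 neighbouring genes were called for Ep2 minus Ep1. The share of all genes called in that fit is not given here, so these counts have no background beside them. The PBS columns carry no number tied to a title and could not be blocked. Ep1_1 correlated best with Ep2_1 (0.152), Ep1_3 with Ep2_3, and Ep1_2 with Ep2_3 (0.0733) about as with Ep2_2. Depth limits DGAT2 and MGLL, each read by at most 13 fragments in a library.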
